A study of Mus musculus with 12 samples.

Results

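Smtn, which encodes the actin-binding protein smoothelin, and 8 other genes of the actomyosin apparatus (Myl9, Acta2, Tagln, Tpm1, Tpm2, Cnn2, Myh9 and Flna) were followed in basal cells of the rugae of the mouse hard palate. They were taken by name from a table of 23420 genes, and all 9 were found in it. The list was chosen by function, with the GFP-HI against GFP-LO fold changes known, and Smtn was selected on its adjusted p as a gene called higher in GFP-HI. Fold changes of the 9 genes between the fractions are therefore given as a description and not as a test.

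The libraries came from 6 FVB mice carrying 1 copy each of the transgenes tetO-H2B-GFP and K5-tTA. In these mice the keratin 5 promoter drives a transactivator that switches on a histone H2B joined to GFP. All mice received doxycycline, which stops new label, for 14 days. Cells carrying CD49f, the integrin α6 of basal keratinocytes, were then sorted into a GFP-HI fraction, described by the submitters as infrequently dividing, and a GFP-LO fraction, described as frequently dividing. Each mouse gave 1 library of each fraction, 6 in all per group, from 200 to 1000 cells, and the mice were 49 days old except B7F, which was 71 days old. The label reports divisions only in cells in which the keratin 5 promoter had been active, and no unchased library was analysed here.

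Contractile force in cells comes from myosin II pulling on actin filaments. A myosin II motor is built of heavy chains such as Myh9 and light chains such as Myl9, and phosphorylation of the light chain by dedicated kinases switches it on. Tropomyosins run along the filament, calponins, transgelin and smoothelin bind to it, and filamins cross-link filaments. Basal keratinocytes use the non-muscle forms of these proteins for adhesion, shape and cytokinesis, whereas Acta2, Tagln and smoothelin are best known from smooth muscle. Many of these genes are targets of serum response factor (SRF), which binds the CArG box, and stiffness and tension also act through YAP and its DNA-binding partners of the TEAD family.

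Total counts were 6678444 to 10547665 per library, and 4030757 to 6419834 without the 45S ribosomal RNA gene Rn45s, which took 31.5% to 59.8%. Levels are given as CPM, which brings all libraries to the same total with correction by trimmed mean of M-values (TMM). A count of 0 allows up to 3 counts, or 0.258 to 0.433 CPM, for counting error only. The 7 basal keratinocyte markers examined were present in every library, led by Krt14, Krt5 and Col17a1, and their summed level was 13983 to 22684 CPM in GFP-HI cells against 16576 to 23560 CPM in GFP-LO. This sum was lower in GFP-HI in 5 of 6 mice. The log2 fold change was negative for 7 of the 7 and passed the test for 0; Krt5, at -0.16, was lower in 6 of 6 mice (edgeR adjusted p = 0.42). The suprabasal list, led by Krt76, Krt13 and Krt10, summed to 1191 to 3611 CPM in GFP-HI cells against 1264 to 2543 CPM in GFP-LO. Markers of other cell types were low, apart from the fibroblast list and the smooth muscle and pericyte list described further below. Endothelial (Pecam1, Cdh5, Kdr), salivary gland (Muc19, Bhlha15, Aqp5), and melanocyte or Merkel cell genes (Pmel, Dct, Atoh1) summed to at most 12.0 CPM in any library. Skeletal muscle genes (Ttn, Myh1, Myh2) summed to 5.65 to 32.7 CPM in GFP-HI cells against 6.96 to 14.3 CPM in GFP-LO, and immune genes (Cd74, H2-Aa, Ptprc) to 0.737 to 21.5 CPM in GFP-HI cells against 0.377 to 32.1 CPM in GFP-LO. The fibroblast list summed to 288 to 528 CPM in GFP-HI cells against 396 to 655 CPM in GFP-LO, nearly all from Dcn and Thy1 with Col6a1 next, while Pdgfra had at most 3 counts in a library. Dcn was lower in GFP-HI (edgeR adjusted p = 0.0031) in 6 of 6 mice, while 4 of the 6 tested fibroblast genes had positive log2 fold changes, none of them passing (Col1a1 1.55, Col1a2 1.11, Vim 1.08 and Thy1 0.13), and the median of the 6 was 0.60. Genes with a count numbered 12312 in B1M GFP-HI and 12810 in B3M GFP-HI, the fewest, and 19023 in B7F GFP-HI, the most.

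The genes spanned a wide range of levels, from the non-muscle myosin heavy chain to smooth muscle transcripts at the detection limit. To compare genes, CPM was divided by the exonic length of each gene in kilobases. Myh9, the main non-muscle myosin II heavy chain, stood highest at 80.1 ± 9.14 CPM per kilobase in GFP-HI cells against 82.5 ± 11.5 in GFP-LO (SD, n = 6 each). Flna, the widely expressed filamin, followed at 66.8 ± 11.2 CPM per kilobase in GFP-HI cells against 69.0 ± 9.05 in GFP-LO, and was below Myh9 in 12 of 12 libraries, although the ranges of the pair overlapped across libraries. Tpm1, a tropomyosin, had 39.1 ± 4.90 CPM per kilobase in GFP-HI cells against 37.2 ± 4.85 in GFP-LO. Tpm2, another tropomyosin, had 37.1 ± 7.22 CPM per kilobase in GFP-HI cells against 37.0 ± 4.93 in GFP-LO. Their order was not fixed, since Tpm1 was above Tpm2 in 8 of 12 libraries.

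Smtn came next with 15.4 ± 3.26 CPM per kilobase in GFP-HI cells against 9.55 ± 3.004 in GFP-LO. Cnn2, a calponin of non-muscle cells, had 6.90 ± 2.14 in GFP-HI cells against 5.90 ± 1.81 in GFP-LO and was below Smtn in 12 of 12 libraries. The smooth muscle genes were lowest. Tagln (transgelin) had 0.627 ± 0.433 CPM per kilobase in GFP-HI cells against 1.22 ± 0.748 in GFP-LO. Acta2 (smooth muscle α-actin) had 1.06 ± 1.79 CPM per kilobase in GFP-HI cells against 0.384 ± 0.240 in GFP-LO. Myl9 (a regulatory light chain) had 1.07 ± 0.777 CPM per kilobase in GFP-HI cells against 0.290 ± 0.209 in GFP-LO. Neighbours among these 3 overlapped and did not keep one order, since Acta2 was above Myl9 in 5 of 12 libraries. The non-muscle regulatory light chains Myl12a and Myl12b, by contrast, averaged 77.5 and 68.1 CPM per kilobase over all libraries, close to the 81.3 of Myh9.

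**Figure D1:**
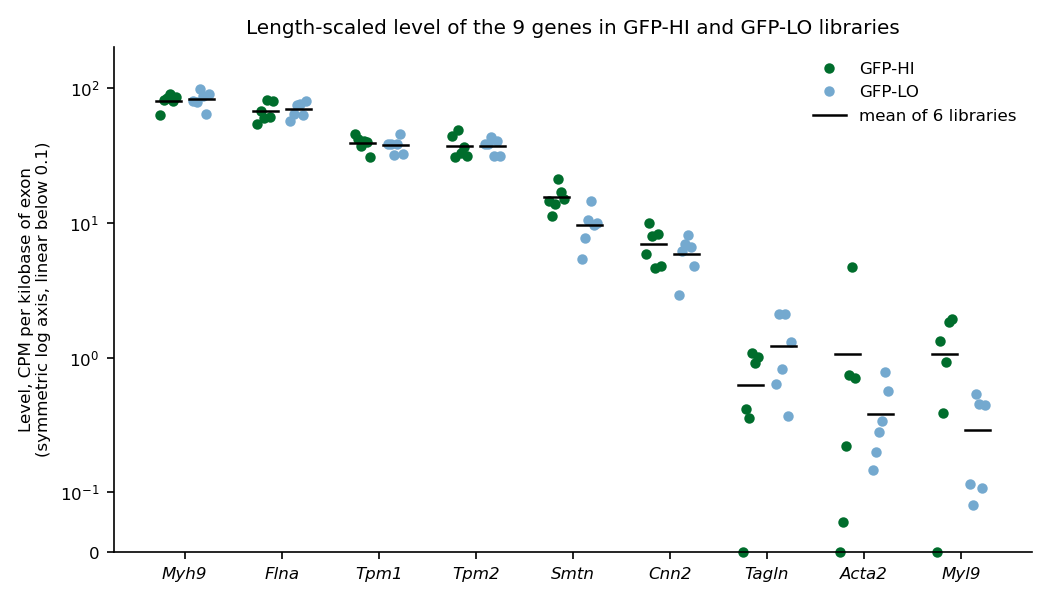
Level of the 9 genes in CPM per kilobase of exon on a symmetric log axis that is linear below 0.1. Each point is a library, GFP-HI left and GFP-LO right for each gene, and bars are means of 6 libraries. Myh9, Flna, Tpm1 and Tpm2 lie above 30 in every library, while Tagln, Acta2 and Myl9 reach 0 in the GFP-HI library of B1M.

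Smtn was the 1 gene of the list that was called higher in GFP-HI. Its level in GFP-HI libraries had a lowest value of 38.2, a median of 49.7 and a highest of 70.8 CPM, against a lowest value of 18.1, a median of 33.0 and a highest of 48.7 CPM in GFP-LO libraries. The groups overlapped across mice, but within each mouse GFP-HI was higher. Its level in GFP-HI over that in GFP-LO gave ratios of 2.72 (B1M), 1.46 (B3M), 1.33 (B4M), 1.45 (B5M), 1.76 (B7F) and 1.498 (B7M). The lowest library of all was GFP-LO of B1M and the highest was GFP-HI of B5M, the mouse that was also highest in GFP-LO. The fitted log2 fold change was 0.71 ± 0.14 (SE, n = 6 mice), or 1.64-fold. In these bulk libraries, a larger number of cells with the transcript and more transcript per cell cannot be told apart.

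Of the 9 genes, 7 passed the filter on low counts, and among these 1 was called higher and 0 lower by edgeR's quasi-likelihood test with an adjusted p (Benjamini-Hochberg) under 0.05. Over all 11719 tested genes 0.469% were called higher, 0.0597% lower and 0.529% either way. GFP-HI was higher in 6 of 6 mice for 1 of the 7 (Smtn), against 3.34% of tested genes, and lower in 6 of 6 mice for 0 of the 7, against 2.6%. The CPM ranges of the fractions were apart for 0 of the 7, against 0.196%, and because the list was built around a called gene nothing is read from these shares. Smtn stood at rank 59 by p among the 62 genes called. Its adjusted p was 0.045, and it was 0.11 without B3M, 0.11 without B4M, 0.13 without B5M, 0.18 without B7F and 0.13 without B7M, so the call was lost when any 1 of these 5 mice was left out. It was also lost with no block for mouse (adjusted p = 0.9991 by edgeR) and with library totals without Rn45s (0.074). Without B1M, the mouse with the largest ratio, the log2 fold change was 0.58 and the adjusted p 0.018.

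**Figure D2:**
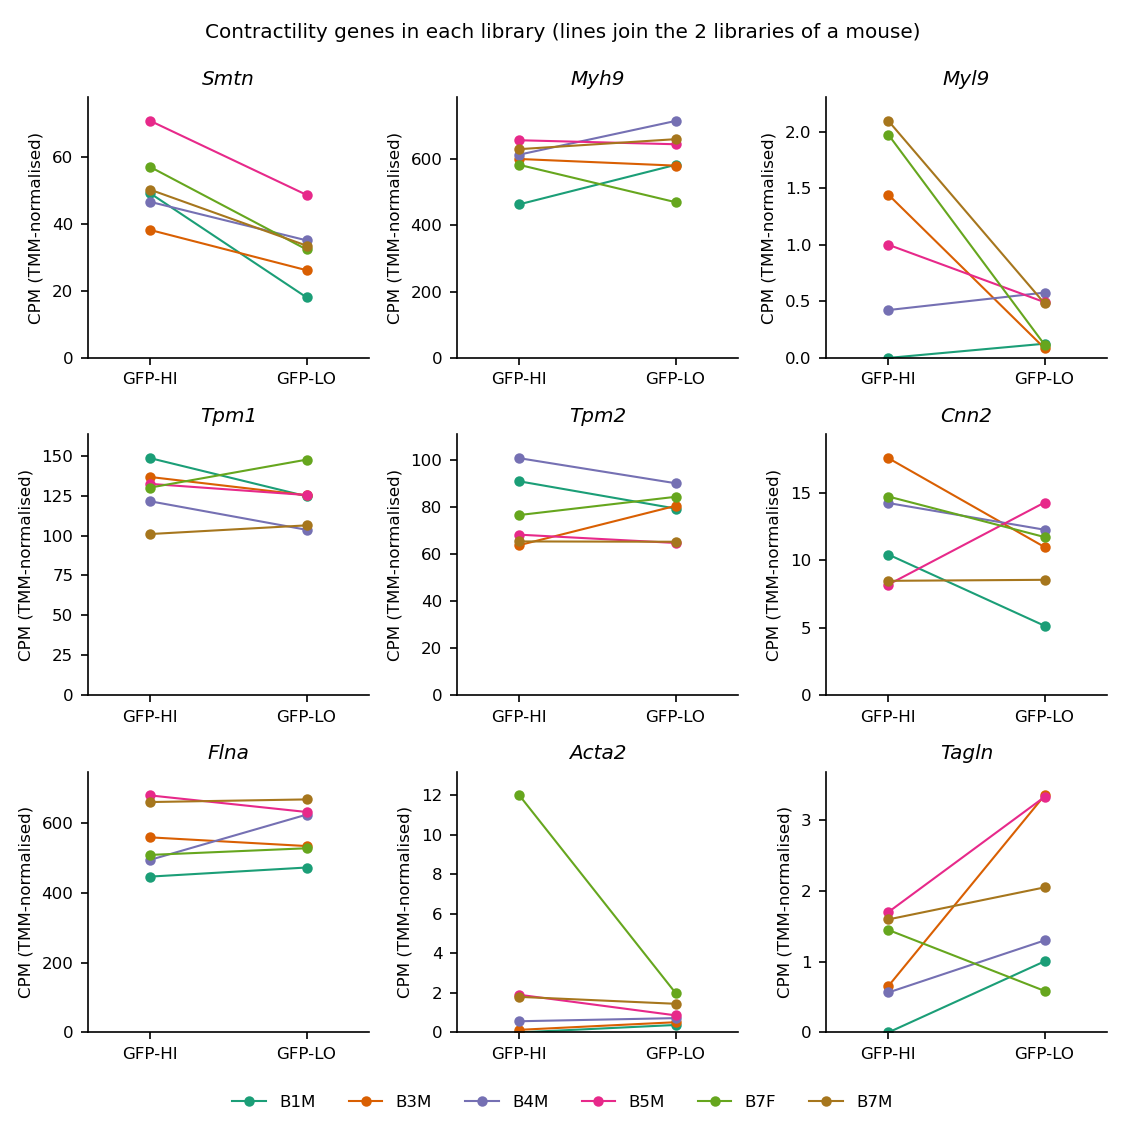
CPM of the 9 genes in each library, GFP-HI left and GFP-LO right, with a line joining the libraries of 1 mouse and a separate vertical axis from 0 for each gene. For Smtn all 6 lines run downwards from GFP-HI to GFP-LO, whereas lines of Myh9, Tpm1, Tpm2, Cnn2 and Flna run both ways.

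The counts behind these levels were examined for reads that other genes could share. Smtn lies on chromosome 11 from 3517522 to 3539292 (mm10, minus strand) with 22 exon blocks and 3387 exonic bases, none of which overlap another gene of the table. Of the other members, Myh9 lies on chromosome 15 (77760589 to 77842115, minus strand), Flna on chromosome X (74223461 to 74246534, minus), Tpm1 on 9 (67022593 to 67049213, minus) and Tpm2 on 4 (43514712 to 43523388, minus). Cnn2 lies on chromosome 10 (79988600 to 79995400, plus), Myl9 on 2 (156775464 to 156781657, plus), Acta2 on 19 (34240336 to 34255373, minus) and Tagln on 9 (45929628 to 45936058, minus). Of the 50-base words in the GENCODE M21 transcripts of Smtn, 9.46% also occur in a transcript of another gene, mostly of Gm11946, which is not a row of the table. Acta2 shared 0.326% of its words, mostly with Actg1, and Myh9 shared 0.680%, mostly with Myh10. Myl9, Tpm1, Tpm2, Cnn2 and Flna shared none. Tagln was different: 58.3% of its words also occur in other genes, mostly in Gm48529, which is not a row of the table, and 95 of its exonic bases overlap Pcsk7 on the other strand. Its level is therefore uncertain. As no source used here gives the strand setting of the counting, reads in these bases cannot be told apart. Smtn has 7 protein-coding transcripts, Tpm1 16 and Tpm2 4 in the same annotation. The counts per gene do not separate these, and so do not tell muscle from non-muscle isoforms.

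The promoters of Smtn and of 3 further genes are printed because they hold the letters that SRF or TEAD factors are known to bind. RefSeq starts (GRCm38.p6) were found for 8 of the 9 genes; Tagln was not matched. In the 250 bases before the start, a CArG box in its strict form (CC and GG around a core of 6 A or T), searched on both strands, was found in 2 of 8 promoters (Myl9 and Cnn2), against 1.47% of 32851 promoters. The letters GGAATG, the core of the TEAD site, searched on both strands, were found in 4 of 8 (Smtn, Acta2, Tpm1 and Flna), against 12.6% of all promoters. A single start per gene was searched, and other starts of these genes were not. As the list was chosen by function, nothing is read from these shares. Near matches, such as a stretch with a C in the core in the Acta2 window, were not counted, and by these patterns no promoter of the 8 held both motifs. The sequences below run 5′ to 3′ towards the start and carry the match in capitals. They lie at chr11:3539293-3539542 on the minus strand for Smtn, at chr9:67049214-67049463 on the minus strand for Tpm1, at chr10:79988350-79988599 on the plus strand for Cnn2 and at chr2:156775214-156775463 on the plus strand for Myl9.
Smtn: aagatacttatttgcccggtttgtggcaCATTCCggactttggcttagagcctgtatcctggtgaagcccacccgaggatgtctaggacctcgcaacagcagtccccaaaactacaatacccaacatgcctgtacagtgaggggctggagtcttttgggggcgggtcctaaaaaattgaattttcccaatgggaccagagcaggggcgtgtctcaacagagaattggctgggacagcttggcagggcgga
Tpm1: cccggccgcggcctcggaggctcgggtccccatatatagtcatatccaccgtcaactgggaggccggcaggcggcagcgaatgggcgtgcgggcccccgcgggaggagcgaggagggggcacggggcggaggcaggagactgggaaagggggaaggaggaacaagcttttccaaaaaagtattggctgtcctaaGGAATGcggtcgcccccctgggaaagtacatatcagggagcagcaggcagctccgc
Cnn2: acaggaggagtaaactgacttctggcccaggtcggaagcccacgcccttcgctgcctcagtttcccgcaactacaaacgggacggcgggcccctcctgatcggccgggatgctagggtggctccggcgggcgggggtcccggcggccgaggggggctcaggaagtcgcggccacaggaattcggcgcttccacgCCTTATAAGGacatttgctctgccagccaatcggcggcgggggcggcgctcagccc
Myl9: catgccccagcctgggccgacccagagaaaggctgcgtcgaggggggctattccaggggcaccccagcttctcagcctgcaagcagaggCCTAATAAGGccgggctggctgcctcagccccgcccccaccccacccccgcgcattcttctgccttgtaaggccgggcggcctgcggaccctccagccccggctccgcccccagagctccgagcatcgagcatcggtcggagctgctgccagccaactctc
In the Smtn window the capitals mark GGAATG on the opposite strand at positions -222 to -217 from the start, and in the Tpm1 window GGAATG at -56 to -51. In the Cnn2 window they mark a CArG box at -56 to -47 and in the Myl9 window one at -161 to -152. These are matches of letters, and no binding was measured.

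The motor and the filament cross-linker, which carry most of the counts of the list, did not pass the test (adjusted p = 0.94 for Myh9 and 0.89 for Flna by edgeR). Myh9 had a lowest value of 463.0, a median of 606 and a highest of 656 CPM in GFP-HI, against a lowest value of 469, a median of 613 and a highest of 714 CPM in GFP-LO. The groups overlapped almost wholly, with GFP-HI higher in 3 of 6 mice. The log2 fold change was -0.04 ± 0.08 (SE, n = 6 mice). Flna had a lowest value of 446, a median of 533 and a highest of 678 CPM in GFP-HI, against a lowest value of 472, a median of 578 and a highest of 667 CPM in GFP-LO. The groups overlapped here too, and GFP-HI was higher in 2 of 6 mice, with a log2 fold change of -0.05 ± 0.07. In both genes the GFP-HI library of B1M had the lowest value among GFP-HI libraries, and that mouse had the largest Smtn ratio.

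The tropomyosins stabilise filaments and set which myosins may bind. Tpm1 had a lowest value of 101, a median of 131 and a highest of 148 CPM in GFP-HI, against a lowest value of 104, a median of 125 and a highest of 148 CPM in GFP-LO. Tpm2 had a lowest value of 63.9, a median of 72.6 and a highest of 101 CPM in GFP-HI, against a lowest value of 64.9, a median of 80.1 and a highest of 90.3 CPM in GFP-LO. For both genes the groups overlapped and GFP-HI was higher in 4 of 6 mice. The log2 fold change was 0.07 ± 0.08 for Tpm1 and -0.01 ± 0.10 for Tpm2. The highest Tpm1 library was GFP-HI of B1M, and the highest Tpm2 library GFP-HI of B4M. The sign of the Tpm2 value changed with the scaling of the libraries.

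Cnn2 binds actin and restrains myosin. It was one of the less precisely measured genes, with 41 to 134 counts per library. It had a lowest value of 8.21, a median of 12.4 and a highest of 17.6 CPM in GFP-HI, against a lowest value of 5.15, a median of 11.4 and a highest of 14.3 CPM in GFP-LO. GFP-HI was higher in 4 of 6 mice, most in B1M (log2 0.99) and B3M (0.67), and lower in B5M (-0.78). Its log2 fold change was 0.24 ± 0.26, and it was -0.07 in the 4 mice other than B1M and B3M, an alternative added after seeing the data.

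**Figure D3:**
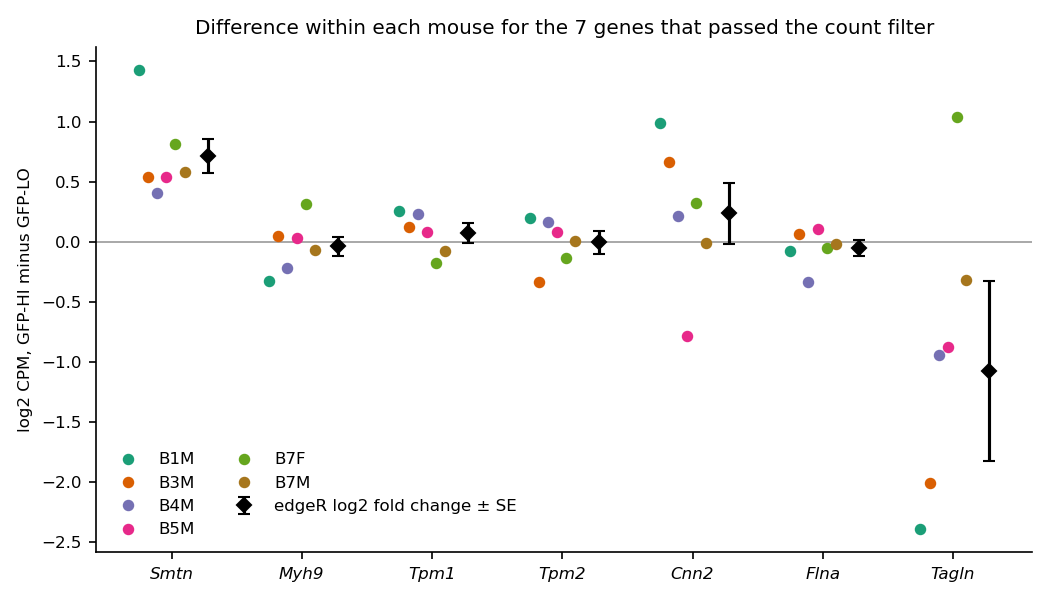
Difference in log2 CPM (prior count 2), GFP-HI minus GFP-LO, within each of 6 mice for the 7 genes that passed the count filter, with the edgeR log2 fold change and its SE as a diamond. All 6 Smtn points lie above 0, from 0.41 to 1.43; the points of the other 6 genes fall on both sides of 0.

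The genes also differed in how much they varied between mice. The SD of the mouse means on the log2 scale was 0.16 for Myh9, 0.17 for Tpm1, 0.20 for Flna and 0.21 for Tpm2, and 0.35 for Smtn and 0.37 for Cnn2. The SD of the within-mouse differences was 0.16 for Flna, 0.17 for Tpm1, 0.20 for Tpm2, 0.22 for Myh9, 0.37 for Smtn and 0.61 for Cnn2. Smtn thus varied between mice about as much as Cnn2 but less within mice. The sum of all 9 genes ranged from 1208 to 1619 CPM in GFP-HI and from 1275 to 1581 CPM in GFP-LO, so the totals overlapped.

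The smooth muscle genes were near the detection limit. Myl9 had 0 to 21 counts per library in GFP-HI cells against 1 to 4 in GFP-LO, 60 and 15 in all. It did not pass the count filter, and its level had a median of 1.22 CPM (0 to 2.10) in GFP-HI cells against 0.304 CPM (0.0859 to 0.578) in GFP-LO. The 4 mice B3M, B5M, B7F and B7M had more in GFP-HI, while in B1M and B4M both libraries had at most 4 counts. No fold change is given, because 3 of the 6 GFP-LO libraries had 1 count each.

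Acta2 did not pass the filter either, and 1 library decided its level. GFP-HI libraries had 0 to 91 counts and GFP-LO libraries 3 to 17, or 133 and 50 in all. The median level was 1.18 CPM in GFP-HI libraries and 0.793 CPM in GFP-LO libraries, and the ranges overlapped. The GFP-HI library of B7F alone held 91 of these counts, or 12.0 CPM, and the other 5 GFP-HI libraries had at most 1.90 CPM. Without B7F the sums were 42 counts in GFP-HI cells against 33 in GFP-LO. Tagln, the third of this kind, passed the filter with 0 to 17 counts per library in GFP-HI cells against 5 to 39 in GFP-LO, 53 and 105 in all. Its medians were 1.05 CPM in GFP-HI cells against 1.68 CPM in GFP-LO, and GFP-HI was lower in 5 of 6 mice, B7F being the exception. The log2 fold change of -1.08 ± 0.75 did not pass the test (adjusted p = 0.80 by edgeR), and it was -0.36 in the 4 mice other than B1M and B3M.

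Of the 14 smooth muscle and pericyte markers examined, the 3 most abundant, Cspg4, Notch3 and Mcam, made up most of the sum, which was 142 to 194 CPM in GFP-HI cells against 128 to 173 CPM in GFP-LO. The other 11, among them the smooth muscle myosin Myh11, desmin (Des) and the pericyte gene Rgs5, summed to 13 to 83 counts in GFP-HI cells against 15 to 47 in GFP-LO. In the B7F GFP-HI library, where Acta2 was high, 3 of these 11 markers were at 0 (Cnn1, Des and Kcnj8), while Synpo2 had 22 counts, Myocd and Abcc9 10 each, Myh11 8, Rgs5 7 and Actg2 5. For Synpo2, Myocd, Abcc9, Rgs5, Actg2 and Acta2 this was the highest of the 12 libraries. The same library had the highest sums of the skeletal muscle (32.7 CPM), salivary gland (12.0 CPM) and melanocyte or Merkel cell lists (6.98 CPM). The endothelial, immune and fibroblast sums were highest in other libraries. In the B1M and B3M GFP-HI libraries Cnn1 had 16 and 36 counts and Lmod1 45 and 43, while Acta2 had 0 and 1. Smtn was at 57.0 CPM in B7F GFP-HI and at 49.1 and 38.2 CPM in B1M and B3M GFP-HI, values within the range of the other GFP-HI libraries (46.6 to 70.8 CPM) but for B3M. Per kilobase, the lowest Smtn level of any library was 5.34 CPM and the highest Acta2 level 4.66 CPM. Within mice, the 11 markers summed to more in GFP-HI in B1M (7.98 CPM, against 1.88 CPM in GFP-LO), in B3M (10.9 against 2.92), in B7F (10.9 against 3.29) and slightly in B4M (7.34 against 6.79). They summed to less in GFP-HI in B5M (2.80 CPM, against 4.32 CPM in GFP-LO) and B7M (1.30 against 2.41), where the Smtn ratios were 1.45 and 1.498. In the mice with more of these markers in GFP-HI, the Smtn ratios were 2.72 (B1M), 1.46 (B3M), 1.76 (B7F) and 1.33 (B4M). The part of these markers in the Smtn difference was not tested.

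**Figure D4:**
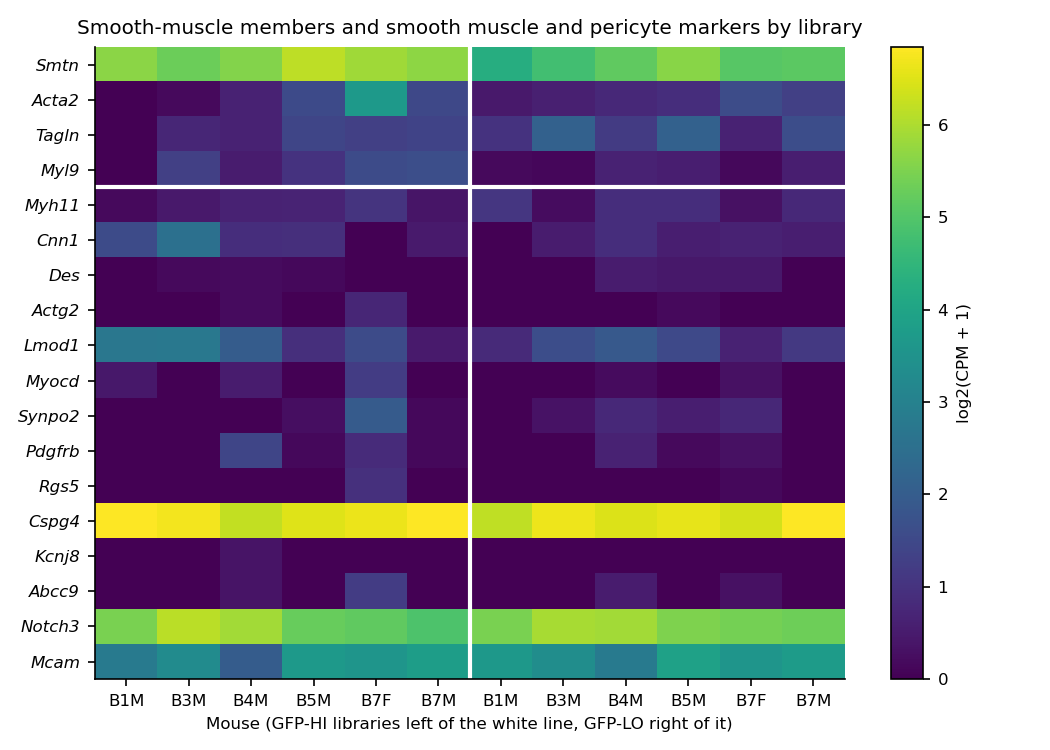
Level of Smtn, Acta2, Tagln and Myl9 and of 14 smooth muscle and pericyte markers as log2(CPM + 1), with GFP-HI libraries left of the white line and GFP-LO libraries right of it. Smtn is bright in all 12 libraries, Acta2 is brightest in the GFP-HI library of B7F, and most markers other than Cspg4, Notch3 and Mcam are dark.

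Genes of the surrounding pathway were taken from 6 lists with 98 tested genes together. Of these, 1 was called higher (1.02%) and 0 lower, against 0.469% and 0.0597% of all tested genes. At an unadjusted p under 0.05 by edgeR, 13 of the 98 passed (13.3%), 11 of them higher, against 7.24% of all tested genes. Of all 11719 tested genes 848 passed in this way, 504 of them higher and 344 lower. The lists were chosen with earlier results of these data known, so nothing is read from these shares. The median log2 fold change was 0.05, beside -0.02 over all tested genes.

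Among other subunits of myosin II, 0 of 6 tested genes passed, and their median was -0.10. The heavy chain gene Myh14 had 158 ± 43.6 CPM in GFP-HI cells against 140 ± 23.9 CPM in GFP-LO cells (SD, n = 6; log2 0.15, adjusted p = 0.78 by edgeR). The regulatory light chain gene Myl12b had log2 -0.24 (edgeR adjusted p = 0.77). The essential light chain gene Myl6 had log2 -0.22 (edgeR adjusted p = 0.78) and its relative Myl6b, at under 2 CPM, -0.79 (0.87). Among kinases, phosphatases and other regulators of myosin 0 of 26 passed, and the median was 0.03. Racgap1, a GTPase-activating protein of cytokinesis, had log2 0.32 (edgeR adjusted p = 0.61). Cfl2, an actin-severing cofilin, had log2 0.29 and was higher in 6 of 6 mice (edgeR adjusted p = 0.64). Cdc42bpa, a kinase of the Cdc42 pathway, had log2 0.18 (edgeR adjusted p = 0.76), and the small GTPase gene Rhoa -0.12 (0.78). The kinase gene Rock1 had 0.02 ± 0.08 (SE, n = 6 mice) and Rock2 0.01 ± 0.09.

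Of actins, other tropomyosins and genes of filament ends, 0 of 13 tested passed, and the median was -0.00. Actb, the main cytoplasmic actin, averaged 1880 ± 326 CPM in GFP-HI cells against 1874 ± 348 CPM in GFP-LO cells (SD, n = 6). Capza1, part of the protein that caps filaments, had 32.9 ± 3.90 CPM in GFP-HI cells against 40.8 ± 3.84 CPM in GFP-LO, lower in 6 of 6 mice (log2 -0.31, edgeR adjusted p = 0.65). The tropomyosin gene Tpm4 had log2 0.14 (edgeR adjusted p = 0.78) and Tpm3 -0.17 (0.79). Tmsb4x, which encodes an actin-sequestering peptide, had log2 0.08 (edgeR adjusted p = 0.85). The actin cross-linking list had 0 of 20 calls and a median of 0.09. Anln, whose product anillin links actin and myosin in the contractile ring, had 230 ± 61.4 CPM in GFP-HI cells against 185 ± 39.1 CPM in GFP-LO, and was higher in 6 of 6 mice (log2 0.30 ± 0.08 SE, edgeR adjusted p = 0.16). Fscn1, which encodes the bundling protein fascin, had 7.30 ± 2.92 CPM in GFP-HI cells against 12.3 ± 5.22 CPM in GFP-LO, lower in 6 of 6 mice (log2 -0.79, edgeR adjusted p = 0.47). Svil, which encodes supervillin, had log2 0.22 (edgeR adjusted p = 0.62).

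Focal adhesion genes had 0 of 16 calls and a median of 0.04. Zyx (zyxin), found where stress fibres meet adhesions, had log2 0.35 (edgeR adjusted p = 0.60) and Tns1, a tensin, 0.30 (0.64). The talin gene Tln2 had log2 -0.48 (edgeR adjusted p = 0.71) and Vasp, an actin polymerising factor, -0.23 (0.79). The list of SRF, its cofactors and targets had 1 call among 17 tested genes and a median of 0.11. The call was Ctgf, a matricellular gene that is also a target of YAP, with 82.0 ± 78.5 CPM in GFP-HI cells against 47.0 ± 40.4 CPM in GFP-LO (log2 0.75 ± 0.12 SE, edgeR adjusted p = 0.0070, higher in 6 of 6 mice). Thbs1, which encodes thrombospondin, had 116 ± 63.0 CPM in GFP-HI cells against 69.3 ± 25.9 CPM in GFP-LO, and was higher in 6 of 6 mice without passing (log2 0.64, edgeR adjusted p = 0.071). Fosb, an immediate early gene, had log2 0.36 (edgeR adjusted p = 0.43), Egr1, another, 0.21 (0.73), and Filip1l 0.24 (0.50). Srf itself had -0.07 ± 0.16 (SE, n = 6 mice), and its cofactor genes Mkl1 and Mkl2 had 0.06 ± 0.13 and 0.09 ± 0.11.

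**Figure D5:**
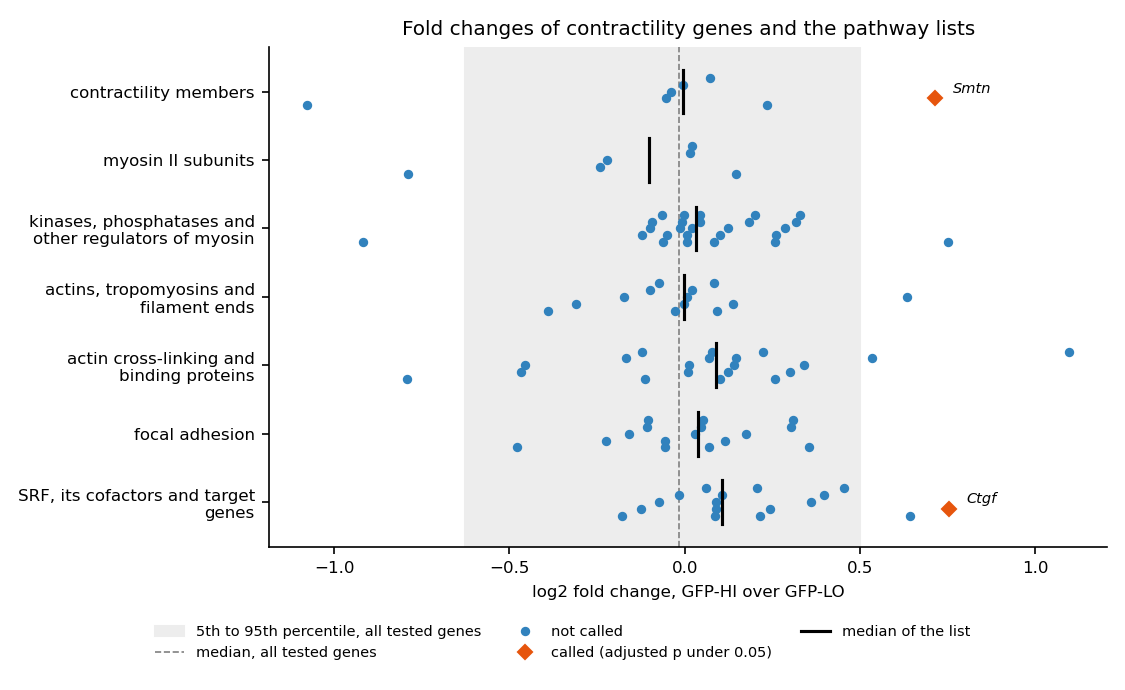
Log2 fold change, GFP-HI over GFP-LO, of each tested gene of the contractility genes and the 6 pathway lists; black bars are list medians, the grey band spans the 5th to 95th percentile of all tested genes, and diamonds mark called genes. Smtn and Ctgf are the called genes, and the medians of the 6 pathway lists lie between -0.10 and 0.11.

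To find genes that vary like Smtn apart from the fractions, each library was taken as its deviation from its group mean in log2 CPM. Over 12 libraries, 2 from each mouse, the 5 of 9557 genes with the highest Pearson r to Smtn were Erdr1 (0.93), Gse1 (0.92), 1600029D21Rik (0.92), Mical3 (0.91) and Ctif (0.90). As the largest of 9557 values over paired libraries, these r are raised by the selection. The highest r of the other tested members ran from 0.88 (Cnn2) to 0.96 (Flna). Mical3 belongs to a family of enzymes that oxidise actin, but a function shared by the 5 genes nearest to Smtn was not tested. These 5 genes had log2 fold changes between the fractions of -0.12 to 0.13.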

How the data were processed

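RNA of sorted palatal basal cells was sequenced in 12 libraries, prepared with the NuGEN SoLo kit per the labels' protocols. The deposited table holds raw read counts per gene, made with featureCounts over annotated exons on mm10, per the file headers and the submitters' processing notes, which also name bcl2fastq 2.20.0, DESeq2 and R 3.4.1. The file also gives exonic length. For the aligner, annotation release, strand setting and treatment of multi-mapping reads, the value is not given in the sources consulted.

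The test used edgeR 4.0.16 under R 4.3.3, with genes filtered by group (minimum count 10, minimum total 15), TMM scaling, robust quasi-likelihood test, two-sided, Benjamini-Hochberg adjustment over 11719 genes, threshold 0.05. SE was taken as the log2 fold change over the square root of F. Mouse was a block, since titles give both libraries of a pair 1 animal code. Deviations from group means correlated at 0.23 to 0.49 between the GFP-HI and GFP-LO libraries of a mouse. Between GFP-HI of 1 mouse and GFP-LO of another they correlated at no more than 0.257. The within-mouse values of B4M (0.225), B1M (0.237) and B3M (0.256) lay below that highest value. Each mouse was nonetheless above its own values with other mice. Pairs within a fraction were not compared. With mouse as a block, p-values rest on how the within-mouse differences between fractions spread over these mice, and not on differences in level between mice. The fit also draws the variance of each gene towards that of the other tested genes. A p-value, that of Smtn included, thus does not rest on the spread of that gene alone.

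The members, lists and tests were chosen with earlier results of these data known. Named in the text are the 9 genes, the called genes and up to 4 genes with the smallest p of each pathway list (1 gene so chosen is not reported here), the 3 most abundant genes of each marker list, and the 5 genes most like Smtn with a mean of at least 5 CPM. Myl12a, Actb, Rock1, Rock2, Srf, Mkl1, Mkl2 and single smooth muscle markers and fibroblast markers were added after their values were seen. Other alternatives were DESeq2 1.42.0, its size factors, totals without Rn45s, other count filters, no block and leaving out mice. No batch is named in the labels, and age could not be told apart from the mouse B7F. Promoters are from RefSeq GRCm38.p6 and transcripts from GENCODE M21.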

Additional observations from a re-analysis of the deposited data

Results flagged for a closer look

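Acta2 in the GFP-HI libraries had 1 library far from the others. The B7F library was at 12.0 CPM and the next highest, that of B5M, at 1.90 CPM, a gap of 0.841 of the whole range of the group. B7F was the mouse aged 71 days, and its GFP-HI library detected the most genes. Such a gap was looked for in 25 groups of 6 values, and chance marks about 1 in 20 where values are normally distributed. For skewed values near the detection limit, such as these of Acta2, the rate was not worked out.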

How the results depend on the processing

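Smtn kept a positive log2 fold change in all 13 alternatives, from 0.58 to 0.77, while its adjusted p ranged from 3.4e-04 to 0.9991. It was called with DESeq2 size factors, DESeq2, no count filter, a minimum count of 30, without B1M, and without both B1M and B3M (0.59, adjusted p = 0.0066). It was not called with library totals without Rn45s (0.68, adjusted p = 0.074) or with no replicate block (0.69). Leaving out single mice gave 0.58 to 0.77. With no replicate block 0 genes were higher and 0 lower by edgeR (293 and 147 at an unadjusted p under 0.05), and 0 of the pathway lists, so the calls depend on the paired fit. DESeq2 called 120 higher, 23 lower and 3 in the lists (Anln, Ctgf and Thbs1); no count filter gave 127, 45 and 4; leaving out B1M and B3M gave 117, 34 and 3. Leaving out single mice gave 29 to 81 higher, 2 to 14 lower and 1 to 2 in the lists.

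Values near 0 changed sign. Tpm2 had 0.0040 with no replicate block, 0.0020 with DESeq2 size factors, 0.0020 with DESeq2, 0.024 without B1M and B3M, and -0.044 to 0.064 without single mice. Myh9 had 0.010 without B1M and B3M and -0.11 to 0.022 without single mice, Flna -0.084 to 0.0024 without single mice, and Cnn2 -0.067 without B1M and B3M. Tagln had -0.36 without B1M and B3M, against -1.08 with all mice. The cause was not tested. Depth limits Myl9, Acta2 and Tagln, which had 75, 183 and 158 counts in 12 libraries.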

Other observations

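Flna varied between libraries together with genes of very long transcripts, an observation made after the values were seen. Taking each library as its deviation from its group mean, the 5 of 9557 genes with the highest Pearson r to Flna over 12 libraries were Herc2 (0.96), Dync1h1 (0.96), Ahnak (0.95), Huwe1 (0.94) and Plxna2 (0.94). Their exonic lengths were 15346, 14398, 18543, 14624 and 11035 bases, and that of Flna is 8347 bases. The genes nearest to Smtn, of 3387 bases, had lengths of 777 to 9858 bases. For Myh9, of 7371 bases, the nearest genes had 2327 to 6718 bases, and for Tagln, of 1586 bases, 2039 to 9938 bases. They had 943 to 6025 bases for Tpm1 (3279 bases), 504 to 2722 for Tpm2 (2098) and 1849 to 3252 for Cnn2 (1782). The lengths of all 9557 genes were not set beside these, and a link between length and r was not tested. Every set was picked as the highest of 9557 r values, which raises r.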
